A study of Mus musculus with 6 samples.

Results

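The region described here is the part of mouse chromosome 12 from 30 to 120 Mb, read through the 12825 probes of a promoter array set that lie in it, of 474380 non-control probes in all. It was selected on these data, because the input DNA of Eed-KO embryonic stem (ES) cells gave more signal there than that of wild-type (WT) cells. The Eed-KO minus WT values of its probes are therefore given as a description and support nothing. Another 2596 probes lie on the same chromosome below 30 Mb and serve as the nearest stretch for comparison. The first probe of the segment starts at 30110727 and the last ends at 119294149, and the probe next below the limit ends at 29342174. No source used here names the genome build of these coordinates.

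Rybp occupancy was profiled by chromatin immunoprecipitation and array hybridisation (ChIP-chip) in ES cells of 3 genotypes, Eed constitutive KO (Eed-KO), Dnmt1 constitutive KO (Dnmt1-KO) and WT. Precipitated DNA (IP, Cy5) and input DNA (Cy3) of a genotype were hybridised to the same array. The promoter set has a pair of array designs with different probes, so there were 6 arrays and no replicates, and no p-value was computed. All 12825 probes of the segment are on the second design, so each value below rests on 1 array per genotype. Per the labels, cells were kept on gelatin or on a layer of irradiated feeder fibroblasts, which one is not given per genotype, and strain, clone and passage are not stated. Where the deletions in Eed and Dnmt1 lie is not stated either, so the arrays were not used to check them. The Dnmt1-KO arrays were scanned on another scanner model and read with a later software version than the other arrays, so genotype and scan cannot be told apart for Dnmt1-KO.

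Rybp is a zinc finger protein of variant Polycomb repressive complex 1, which ubiquitinates histone H2A at CpG-rich promoters. Eed belongs to Polycomb repressive complex 2, the methyltransferase of lysine 27 on histone H3, and Dnmt1 copies DNA methylation onto newly made strands. In ES cells Polycomb complexes occupy the promoters of many developmental regulators. Chromosome 12 carries several such genes, among them Pax9, the Nkx2-1 and Nkx2-9 pair, Foxa1, Six4, Six6 and the imprinted Dlk1-Dio3 domain. In ChIP-chip the input channel measures DNA before precipitation, and the ratio of IP over input divides out whatever both channels share.

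The probes that bear on the segment are short oligonucleotides, 45 to 60 bases long with a median of 57, spaced by a median of 179 bp. Those printed next are the pair on either side of the 30 Mb limit and, for 4 promoter windows described later, the probe with the highest WT ratio in the window. Sequences are those of the array design, 5′ to 3′, and capitals mark each CG dinucleotide. Of the segment's probes that could be found in RefSeq promoters of chromosome 12 (GRCm38.p6), 580 matched the plus strand and 3 the minus strand.
Myt1l, first probe of the segment, chr12:30110727-30110786: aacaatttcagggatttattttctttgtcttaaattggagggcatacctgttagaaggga
Eipr1, last probe below the limit, chr12:29342116-29342174: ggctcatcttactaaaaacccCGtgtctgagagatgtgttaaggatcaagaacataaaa
Dio3, chr12:110727206-110727254: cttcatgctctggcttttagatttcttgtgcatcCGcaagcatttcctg
Hspa2, chr12:77323694-77323744: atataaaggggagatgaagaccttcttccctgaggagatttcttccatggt
Npas3, chr12:54169346-54169394: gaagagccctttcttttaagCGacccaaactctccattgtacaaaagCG
Mpp5, chr12:79667211-79667264: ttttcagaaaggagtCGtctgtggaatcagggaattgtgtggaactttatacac

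The Myt1l probe lies 3915 bp upstream of the gene's start. Its processed input signal was 439 in Eed-KO, 64.3 in Dnmt1-KO and 313 in WT. The Eipr1 probe lies inside the gene, 4012 bp from its start, and gave an input signal of 958 in Eed-KO, 341 in Dnmt1-KO and 966 in WT. After centring each array on its median, the Eed-KO minus WT difference in log2 input was 0.57 at the Myt1l probe and 0.07 at the Eipr1 probe. A single probe scatters widely, since the differences of the segment's probes had a standard deviation (SD) of 0.34.

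Across the segment, DNA of Eed-KO cells was slightly more abundant on the array than DNA of WT cells, in the input and in the precipitate alike, while the ratio of the channels was close to that in WT. The median processed input signal of the 12812 probes without an outlier flag was 958 in Eed-KO, 728 in Dnmt1-KO and 889 in WT. Below 30 Mb the median over 2594 probes was 837 in Eed-KO, 814 in Dnmt1-KO and 901 in WT. On the log2 scale after centring, Eed-KO minus WT had a median of 0.18 over the segment, or 1.14-fold, against -0.02 below 30 Mb. The other 18 autosomes had medians between -0.03 (chromosome 11) and 0.06 (chromosome 14), so the segment lay above each of them. The difference was above 0 at 77.9% of the segment's probes and at 46.5% of the probes below it.

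The IP channel, which holds separately labelled DNA, had an offset of the same size. Its median difference was 0.19 in the segment and -0.03 below 30 Mb, with the other autosomes between -0.04 and 0.04. The IP difference was above 0 at 78.6% of the segment's probes. Rybp enrichment, the ratio of IP over input, had a median difference of 0.01 in the segment and -0.00 below it, and was above 0 at 51.5% and 49.7% of probes.

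The offset ran along the whole segment in blocks of 5 Mb. In each of the 18 blocks both channels were higher in Eed-KO, with input medians between 0.12 (from 110 Mb) and 0.28 (from 45 Mb) and IP medians between 0.15 and 0.25. The 6 blocks below 30 Mb had input medians between -0.09 and 0.01. In bins of 1 Mb with at least 20 probes, 70 of 71 bins of the segment had an input median above 0. Among the other autosomes, such bins ranged from 24 of 107 (chromosome 11) to 85 of 103 (chromosome 8). A median of at least 0.2, the size called raised, was reached by 24 of 71 bins (33.8%), against a background of 5.22% of 2107 bins over all chromosomes. None of the 17 bins of chromosome 12 below 30 Mb was raised. In 20 of the 24 bins the IP was raised as well. Other raised bins lay mainly on chromosome X (30 of 111), chromosome 14 (26 of 92, up to 0.85) and chromosome 17 (10 of 76, up to 0.92).

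**Figure D1:**
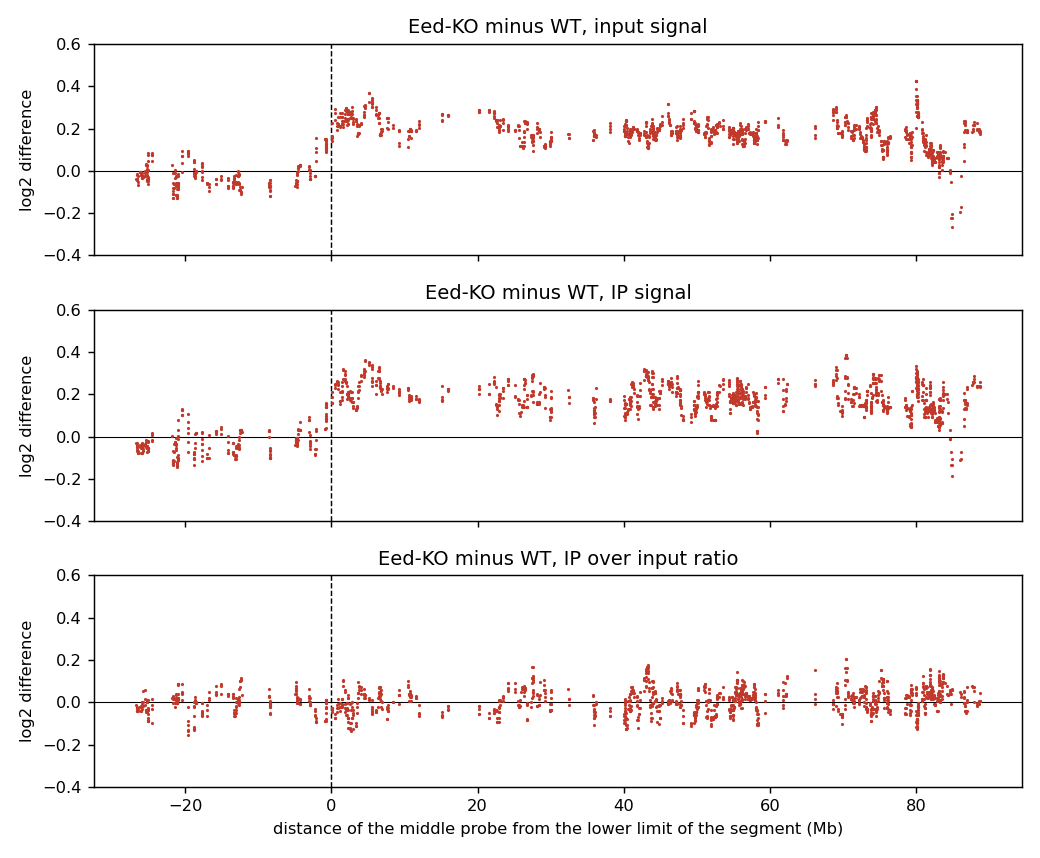
Running medians over 101 neighbouring probes of the Eed-KO minus WT log2 difference along chromosome 12, for input (top), IP (middle) and their ratio (bottom), against the distance in Mb from the lower limit of the segment (dashed line). Input and IP lie around 0 to the left of the limit and mostly between 0.1 and 0.3 to the right of it, with a dip near the far end, while the ratio lies around 0 on both sides.

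The probes do not place the step at the lower end exactly. The following intervals were chosen after their values were seen. The genes from Myt1l to Sntg2, the first of the segment, had a median Eed-KO minus WT difference of 0.24 in both channels over 138 probes, with 119 probes higher in input and 116 higher in IP. The genes from Allc to Eipr1, next below the limit between 29166367 and 29342174, had a median of 0.11 in both channels over 159 probes, with 103 and 111 higher. Between 25 and 29 Mb the input difference had a median of -0.01 over 439 probes. The median just outside the limit was thus intermediate, but bins of 1 Mb farther below reached like input medians. These were 0.13 from 5 Mb and 0.12 from 10 Mb, with 0.15 and -0.02 in IP. Of the 17 bins below 30 Mb, 4 had an input median above 0. No gradual edge is read from these values, and 769 kb without probes lie between the Eipr1 and Myt1l probes.

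Values of the genes on either side of the limit overlapped. Above it, the neuronal transcription factor gene Myt1l had an input difference of 0.34 and the peroxidasin gene Pxdn 0.16. Below it, Adi1, an enzyme of methionine salvage, had 0.12, Trappc12, of a vesicle tethering complex, 0.10, and Eipr1 0.07. Picked after the values were seen to show the overlap, Sntg2 had 0.12 above the limit and Allc 0.19 below it. At Myt1l 32 of 38 probes were higher in Eed-KO, with a median input signal of 773 in Eed-KO, 300 in Dnmt1-KO and 621 in WT.

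Gene by gene, the offset was nearly uniform. Of the 400 genes of the segment with at least 10 probes, 394 had an input median above 0 (98.5%), against a background of 53.3% of 16354 genes over all chromosomes and 33 of 81 genes below 30 Mb. Both channels were above 0 for 387 of the 400 genes, against 33.7% over all chromosomes and 16 of 81 below 30 Mb. Among the highest input differences were those of Exd2, an exonuclease gene, at 0.58, Prps1l1 at 0.42, Agr3 at 0.42 and the chaperone gene Dnajb9 at 0.35. In Exd2 the IP difference was lower, at 0.18, and in Prps1l1 and Agr3 it was 0.39 and 0.36.

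Fam177a stood apart from the rest of the segment in the opposite direction. Its median input difference was -0.84 with an IP difference of -0.66, and 13 of its 14 probes were lower in Eed-KO in input and 14 of 14 in IP. The median input signal was 1545 in Eed-KO, 2135 in Dnmt1-KO and 2482 in WT, and the WT values ran from 990 to 6896. The ratio difference had a median of 0.12. Its neighbours did not share this. The gene 2700097O09Rik, whose probes end at 55997745, had an input difference of 0.14. Ppp2r3c, a phosphatase subunit gene whose probes begin at 56218865, had 0.15, and the proteasome subunit gene Psma6 had 0.17. The 14 probes lie between 56040461 and 56045168, and the annotation pairs a few of them with Srp54a as well. Against WT, Dnmt1-KO had an input difference of -0.34 at Fam177a, or -1.08 after subtracting the trend on probe GC content described later, with single probes from -3.28 to 4.49. The next lowest genes were Bag5 at -0.09, Siva1 at -0.07, and Adssl1 and Inf2 at -0.01 each.

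The far end of the segment was also uneven, in an interval chosen after its values were seen. Between 114045156 and 116057736 lie 158 probes that the annotation pairs with no RefSeq gene. Their median input difference was -0.13 with an SD of 0.66 over probes, and 63 of 158 (39.9%) were higher in Eed-KO. Within this interval, 31 probes from 114215752 to 114398756 had a median of 0.30 in input and 0.49 in IP. By contrast, 35 probes from 114837982 to 114907503 had -0.30 and -0.19, and 24 probes from 116042753 to 116057736 had -0.39 and -0.30. The 570 other probes without a RefSeq gene had a median of 0.27, and the 12084 paired probes 0.18. Leaving out the 158 probes gave a median of 0.18 in input and 0.19 in IP for the segment.

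The offset was seen in each class of base composition and brightness examined. Over 5 classes of probe GC content, from below 35% to 50% or more, the segment's input difference was above that of the second design's other chromosomes by 0.20, 0.21, 0.21, 0.16 and 0.10. In 5 classes of WT input signal, from dimmest to brightest, the same excess was 0.20, 0.21, 0.22, 0.21 and 0.14. It was smallest in the class richest in GC and in the brightest class. Across the 71 bins the Eed-KO input difference had a Pearson correlation of -0.34 with the bin's median GC content, a description of bins that share 1 pair of arrays.

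In Dnmt1-KO the input difference from WT had a median of -0.10 in the segment and 0.04 below 30 Mb, within the range of the other autosomes, from -0.62 (chromosome 13) to 0.49 (chromosome 15). Over probes with input well above background on all 3 arrays it was 0.31 in the segment and 0.35 below 30 Mb. Blocks of 5 Mb ran from -1.45 to 1.00 and followed base composition. Over the same 71 bins the correlation with GC content was 0.92, and over the 2036 other bins of all chromosomes it was also 0.92. Subtracting the median of probes with like GC content left -0.03 in the segment and 0.02 below it. The Rybp ratio difference in Dnmt1-KO had a median of 0.02 in the segment and 0.09 below it, within or at the other autosomes' range of -0.04 to 0.09. In the segment it was -0.03 with arrays set to a common spread and -0.01 after subtracting the GC trend.

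**Figure D2:**
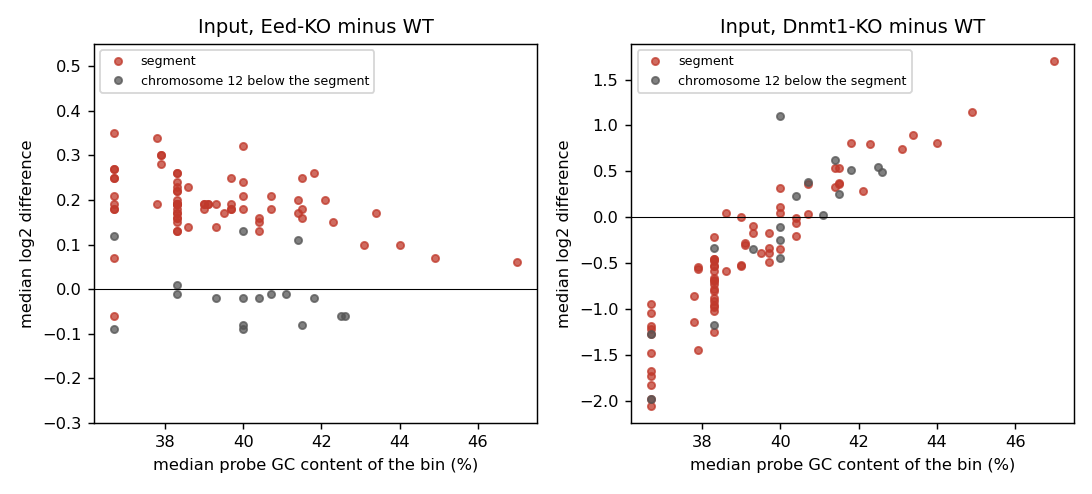
Median input difference in bins of 1 Mb on chromosome 12, Eed-KO minus WT (left) and Dnmt1-KO minus WT (right), against the median GC content of the bin's probes in percent. Red points are bins of the segment and grey points bins below it. On the left 70 of 71 bins of the segment and 4 of the 17 grey bins lie above 0. On the right both sets follow GC content, with a correlation of 0.92 in the segment.

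Rybp occupancy within the segment is described by promoter windows. A window is a run of 6 neighbouring probes of a gene within 3 kb, and of a gene's runs the one with the highest ratio, averaged over the 3 genotypes, was taken. A log2 ratio of 1 or more, a 2-fold excess of IP, was called bound. The segment had 395 windows. In Eed-KO 42 were bound (10.6%), in Dnmt1-KO 206 (52.2%) and in WT 26 (6.58%). The backgrounds over 15924 windows of all chromosomes were 5.91% in Eed-KO, 46.7% in Dnmt1-KO and 5.25% in WT. In WT the segment was thus close to the genome, and below 30 Mb 7 of 80 windows were bound in WT. The fixed level meets arrays of unlike spread. The ratio's SD over the second design's probes was 0.47 in Eed-KO, 0.91 in Dnmt1-KO and 0.42 in WT. With arrays set to a common spread, 84 of 396 windows were bound in Eed-KO, 103 in Dnmt1-KO and 88 in WT. The count in Eed-KO was then below that in WT. The windows bound in WT held 3.84 CG dinucleotides per 100 bases of probe on median, against 3.06 in the others.

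The highest WT levels were at genes of varied roles. Dio3, the deiodinase gene at one end of the imprinted domain, had a level of 1.97 ± 0.41 in Eed-KO, 2.42 ± 0.45 in Dnmt1-KO and 1.65 ± 0.32 in WT (SD over the 6 probes here and below). The Dio3 probe printed above had an IP signal of 6680 in Eed-KO, 54567 in Dnmt1-KO and 4036 in WT, over an input of 1144, 9071 and 950. Tcl1, an Akt co-activator gene active in ES cells, had 1.40 ± 0.24 in Eed-KO, 2.86 ± 0.35 in Dnmt1-KO and 1.53 ± 0.29 in WT. Hspa2, a chaperone gene of male germ cells, had 1.85 ± 0.53, 3.16 ± 0.53 and 1.45 ± 0.38 in Eed-KO, Dnmt1-KO and WT. At its printed probe, which holds no CG, the IP signal was 6339 in Eed-KO, 89578 in Dnmt1-KO and 4133 in WT. The other windows among the 10 highest in WT were Npas3 (1.40), 4930447C04Rik (1.36), the tooth and skeletal regulator Pax9 (1.34), the somatostatin receptor gene Sstr1 (1.33), Sp8 (1.31), Bbof1 (1.31) and Lrfn5 (1.28). The Bbof1 window is centred 8570 bp from that gene's start and is shared with Rnf113a2.

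**Figure D3:**
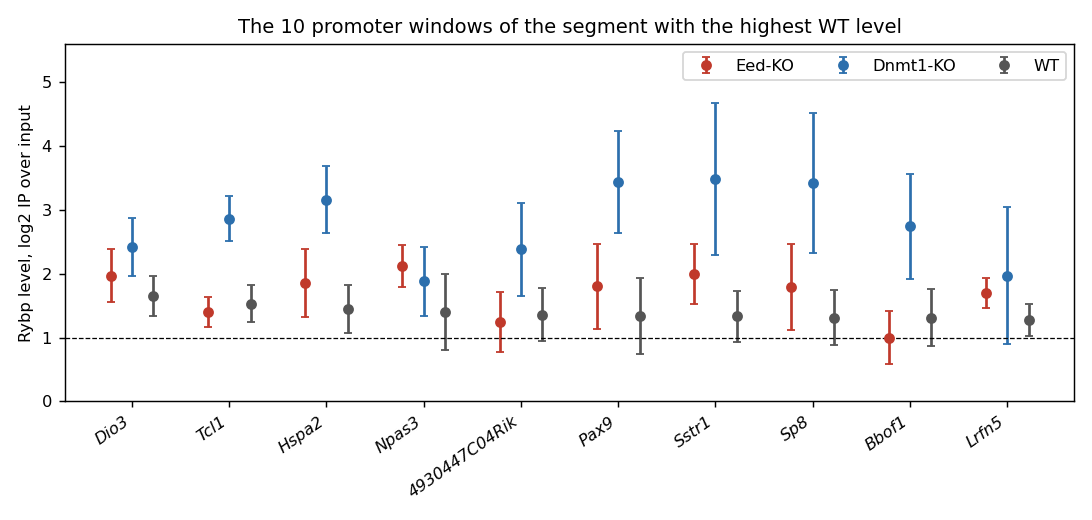
Rybp level (log2 IP over input, mean of 6 probes, bars SD over the probes) in Eed-KO, Dnmt1-KO and WT at the 10 windows of the segment with the highest WT level; the dashed line marks the bound level of 1. Dnmt1-KO has the highest point at 9 of 10 windows, the exception being Npas3, and Eed-KO lies above WT at 7 of 10.

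Between Eed-KO and WT, most windows of the segment differed by little. The median ratio difference over the 395 windows was -0.02, against -0.04 over all 15924. The difference was above 0 at 180 windows (45.6%), against 40.8% over all chromosomes. Both genotypes bound 21 of the 395 windows, against 640 of 15924 over all chromosomes. A further 21 of 395 were bound in Eed-KO and not in WT, against 301 of 15924. In WT and not in Eed-KO 5 of 395 were bound, against 196 of 15924. Of the 47 windows bound in either, 2 were higher in Eed-KO by at least 0.5, against a background of 4.40% of 1137, and 1 was lower by as much, against 1.93%. These are the contrast and arrays on which the segment was selected, and nothing is read from the counts.

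At the higher pair, the window means differed in the IP and hardly in the input. Npas3, a neuronal bHLH-PAS transcription factor gene, had a level of 2.12 ± 0.33 in Eed-KO, 1.88 ± 0.54 in Dnmt1-KO and 1.40 ± 0.59 in WT. Its 6 probes, from 54168661 to 54169520 upstream of the start, had Eed-KO minus WT ratio differences from 0.31 to 1.50. The window's mean input difference was -0.01 and its IP difference 0.70. Sstr1 had 1.99 ± 0.47 in Eed-KO, 3.48 ± 1.19 in Dnmt1-KO and 1.33 ± 0.40 in WT, with an input difference of 0.01 and an IP difference of 0.66. Both windows were picked for a high ratio difference, which favours a low input difference. Single Npas3 probes ran from -0.51 to 0.43 in input, so no lack of the segment's offset is read from these means. Other windows with all 6 probes higher were Mdga2, a neuronal adhesion gene, at 0.47, Pax9 at 0.46 and the Wnt modulator gene Dact1 at 0.44, with input differences of 0.14, 0.12 and -0.07.

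The lower one was Mpp5, which encodes a scaffold of epithelial polarity. It had 0.31 ± 0.83 in Eed-KO, 1.58 ± 0.15 in Dnmt1-KO and 1.04 ± 0.64 in WT, a difference of -0.73 ± 0.25 (standard error over 6 probes). All 6 probes were lower in Eed-KO, by -0.39 to -1.97. The lowest of them had an input difference of 0.94 and an IP difference of -1.04, and over the window the means were 0.28 and -0.46. The printed Mpp5 probe had an IP signal of 1462 in Eed-KO, 773 in Dnmt1-KO and 2053 in WT. Bbof1 at -0.31 and Dnajb9 at -0.17 were the other windows with all 6 probes lower in Eed-KO.

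Windows bound in WT had the segment's offset in input and more in IP. Over the 26 windows the median Eed-KO minus WT difference was 0.23 in input, 0.40 in IP and 0.17 in ratio, and the ratio was higher in Eed-KO at 17. At the windows not bound in WT it was 0.17 in input and 0.14 in IP. Over all 836 windows bound in WT the medians were 0.08, 0.09 and 0.02, with a higher ratio at 440. At the 7 windows below 30 Mb they were 0.04, -0.05 and -0.03.

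Among developmental transcription factor genes, 19 were listed and 18 had a window. Of these 10 were bound in Eed-KO, 17 in Dnmt1-KO and 5 in WT, against 5.91%, 46.7% and 5.25% over all windows. The median level was 1.02 in Eed-KO, 2.07 in Dnmt1-KO and 0.88 in WT, against 0.22, 0.93 and 0.27 over all windows. The highest were Npas3, Pax9 and Nkx2-9, a ventral neural homeobox gene with 1.49 in Eed-KO, 3.07 in Dnmt1-KO and 1.13 ± 0.55 in WT. Nkx2-1, which specifies lung and thyroid, had 1.26, 1.96 and 1.11 in Eed-KO, Dnmt1-KO and WT, and its input difference of 0.55 was the highest of the list. Gsc, the organiser homeobox gene, was at 1.41 in Eed-KO, and in WT just under the bound level, at 1.00 after rounding. Six6 was at 1.08 in Eed-KO and 0.79 in WT, and Six4 was at 0.41 in Eed-KO and 0.50 in WT. The median Eed-KO minus WT difference of the list was 0.15 in ratio, 0.22 in input and 0.34 in IP. The input difference was above 0 at 17 of 18 windows, and 1 window was higher by at least 0.5 in ratio.

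In the Dlk1-Dio3 domain, 3 of 8 listed genes had a window. Dlk1, the paternally expressed Notch-like ligand gene, had 1.03 in Eed-KO, 2.14 in Dnmt1-KO and 0.86 ± 0.34 in WT, and Rtl1 had 0.25, 1.26 and 0.26. At Dio3, Dlk1 and Rtl1 the input differences of Eed-KO were 0.30, 0.24 and 0.25, and the ratio differences 0.32, 0.18 and -0.01.

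The ES cell genes included 2 bound windows of 8 in WT, against 5.25% over all windows. Zfp36l1, an mRNA decay factor gene, had 1.41 in Eed-KO, 2.40 in Dnmt1-KO and 1.13 ± 0.39 in WT, beside Tcl1 given above. Dicer1, the microRNA-processing enzyme gene, had 0.87, 1.42 and 0.86. Esrrb, a pluripotency nuclear receptor gene, had 0.12, 0.36 and 0.08, so it was near the array median in each genotype. Input was higher in Eed-KO at all 8 windows, with a median difference of 0.23.

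Of 17 windows of signalling genes, 2 were bound in Eed-KO, 9 in Dnmt1-KO and 1 in WT, against 5.91%, 46.7% and 5.25% over all windows. The one bound in WT was that of the protein kinase gene Prkd1, with 1.00 in Eed-KO (also bound), 1.10 in Dnmt1-KO and 1.01 ± 0.44 in WT. Dact1 had 1.39, 2.04 and 0.95 ± 0.27, and the latent TGF-beta binding protein gene Ltbp2 had 0.97, 1.73 and 0.87 ± 0.30. Among 11 windows of neuronal genes 3 were bound in Eed-KO, 9 in Dnmt1-KO and 2 in WT. Lrfn5, a synaptic adhesion gene, had 1.70 ± 0.23, 1.97 ± 1.07 and 1.28 ± 0.25, and Rgs6, a G-protein regulator gene, had 1.13, 2.26 and 0.93. The input difference was above 0 at 14 of the 17 and 9 of the 11 windows.

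Of 22 windows of housekeeping genes none was bound in Eed-KO or WT and 8 in Dnmt1-KO (5.91%, 5.25% and 46.7% over all windows). Among the highest in WT were the thioesterase genes Acot1 (0.81 in Eed-KO, 0.98 in Dnmt1-KO, 0.98 ± 0.43 in WT) and Acot2 (0.52, 1.16 and 0.66). Their median ratio difference in Eed-KO was -0.12, with 5 of 22 above 0, while 20 of 22 had higher input. Acot1 and Acot2 are similar in sequence, so probes may not tell them apart. The serpin cluster, hepatic protease inhibitor genes, and other terminal differentiation genes had 14 windows, none bound in Eed-KO or WT and 2 in Dnmt1-KO. The endothelial lectin gene Clec14a had 0.98 in Eed-KO, 1.78 in Dnmt1-KO and 0.97 ± 0.14 in WT, the thyrotropin receptor gene Tshr 0.87, 1.18 and 0.67, and the bradykinin receptor gene Bdkrb2 0.55, 0.87 and 0.41. Input was higher in Eed-KO at 12 of the 14.

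For comparison, 15 of 18 genes listed for chromosome 12 below 30 Mb had a window there, and Myt1l of that list lies in the segment. Input was higher in Eed-KO at 7 of the 15, with a median difference of -0.04, and the median ratio difference was -0.02. Id2, an inhibitor of bHLH factors, had 1.55 in Eed-KO, 1.71 in Dnmt1-KO and 1.46 in WT, the pseudokinase gene Trib2 1.32, 2.78 and 1.34, and the proto-oncogene Mycn 1.36, 2.15 and 0.91.

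**Figure D4:**
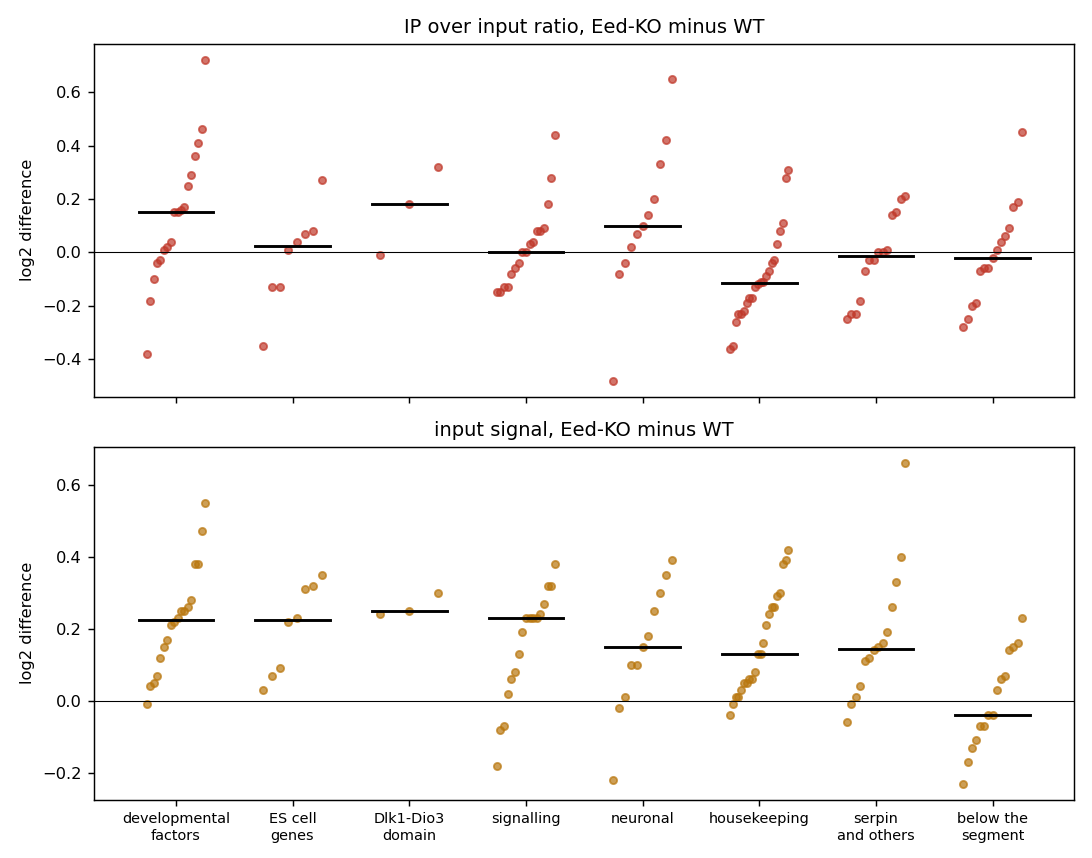
Eed-KO minus WT log2 differences of the promoter windows of each gene list, for the IP over input ratio (top) and the input signal (bottom); each point is a window and each bar the median of a list. The input medians lie between 0.13 and 0.25 in the 7 lists of the segment and at -0.04 in the list below it, and the ratio medians lie between -0.12 and 0.18.

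In Dnmt1-KO the ratio was above that of WT at 342 of the segment's 395 windows (86.6%), against 83.8% over all windows. The median difference was 0.61, equal to that over all windows. This median was 0.41 after subtracting the GC trend, 0.39 with windows chosen on the Eed-KO and WT arrays and 0.05 with arrays set to a common spread. Each of the 26 windows bound in WT was also bound in Dnmt1-KO, against 809 of 836 over all chromosomes. In Dnmt1-KO 180 further windows of the segment's 395 were bound, against 6629 of 15924 over all chromosomes. Of the 206 windows bound in either, 108 were higher in Dnmt1-KO by at least 1, against a background of 53.7% of 7465, and none was lower by as much, against 0.0402%. The segment was thus near the background. The highest differences with all 6 probes in 1 direction were those of the phosphatase subunit gene Ppp2r5e at 2.24 ± 0.51, Sstr1 at 2.14 ± 0.36, the neuronal ubiquitin ligase gene Trim9 at 2.12 ± 0.42, Gpr135 at 2.11 ± 0.51 and Sp8 at 2.10 ± 0.48 (standard errors over 6 probes). Ppp2r5e had a level of 0.13 in Eed-KO, 2.57 in Dnmt1-KO and 0.32 in WT. The smallest such differences were Etv1 at 0.41, Npas3 at 0.48, Coch at 0.52, Ptprn2 at 0.55 and Gsc at 0.55. With arrays set to a common spread these were -0.25, -0.78, -0.44, -0.18 and -0.41 in the same order, so all 5 turned their direction. The input differed too: the Dnmt1-KO minus WT difference in input was 3.36 at Ppp2r5e, 1.49 at Sstr1, 1.89 at Npas3 and -0.65 at Etv1, and its part in the result was not tested. The count of 108 was 60 after subtracting the GC trend and 3 after setting the arrays to a common spread.

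The size of the Eed-KO offset depended on the background correction. With normexp correction of the raw signals the segment's median was 0.08 in input and 0.14 in IP, with -0.01 and -0.02 below 30 Mb, and no bin reached 0.2. With arrays set to a common spread it was 0.33 and 0.31. In each of these settings it had the same direction.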

How the data were processed

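Rybp ChIP-chip was measured on 6 arrays of 2 designs, 1 array per genotype and design. Per the file headers, the authors deposited Agilent Feature Extraction output, in which the processed intensity of each channel is background-subtracted and dye-normalised. Versions were 9.5.3.1 (Eed-KO, WT; scanner G2505B) and 10.1.1.1 (Dnmt1-KO; scanner G2505C), while the submitters' processing notes list 9.5.3.1 throughout. The authors' deposited value table gives the Cy5 to Cy3 ratio on the log10 scale. Apart from a constant for each array, whose origin is unknown, it matched the scanner log ratios to 0.001 at 99.0% or more of the probes. The column medians on the second design were -0.0316 (Eed-KO), -0.114 (Dnmt1-KO) and -0.0270 (WT).

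From the deposited intensity values, log2 input, log2 IP and their ratio were centred on each array's median over non-control probes. Outlier-flagged probes (on any genotype's array) were dropped, and saturated ones kept. Input was well above background at 99.9% of the segment's probes in Eed-KO, 86.5% in Dnmt1-KO (with a multiplier of 13 in place of 2.6) and 99.9% in WT. The number of arrays limits the precision. Differences are medians over probes. Windows, the bound level and cut-offs are fixed rules of size, and no test was possible with 1 array per genotype. SDs and standard errors over probes cover no variation between cultures or hybridisations.

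Coordinates and genes are those that the Dnmt1-KO files list. Of 449 RefSeq accessions in the segment, 437 matched a GRCm38.p6 table used for names. The pairing of probes with genes was not fixed beforehand. There were 3 ways, all run with their bound counts seen before one was kept, each probe counting for every RefSeq gene its annotation lists. The ways not kept were 1 gene name per probe and genes within 10 kb. Members, gene lists and rules were chosen with earlier results of these data known. The text names the 10 windows highest in WT, the 3 highest of each list, for each knockout the 5 lowest and 5 highest differences among windows whose 6 probes share a direction, the 5 lowest and highest genes by input, and the 3 genes on either side of 30 Mb, though not every one, since some items are not reported here. Further genes named within a list were chosen after their values were seen. The steps were checked on simulated data. Analyses used Python 3.11.15, pandas 2.3.3, numpy 2.4.6 and limma 3.58.1 (R 4.3.3, normexp with offset 50).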

Additional observations from a re-analysis of the deposited data

How the results depend on the processing

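Of 126 alternative values, 97 stayed within the limits set for a difference (1 SD of the segment's 5 Mb medians, a limit set after the files were seen) or for a count (1.5 times), and 29 moved further. For Dnmt1-KO this limit was wide, 0.67 in input and 0.75 in IP, so that even a change of sign could count as staying within it. The segment's Dnmt1-KO input and IP differences, both -0.10, became 0.31 over probes with input well above background on all 3 arrays. Its Dnmt1-KO ratio difference of 0.02 became -0.03 with a common spread and -0.01 less the GC trend. These changes are counted among the 97. The median Dnmt1-KO difference over the windows, 0.61, is not among the 126. It became 0.05 with a common spread, 0.41 less the GC trend and 0.39 with windows chosen on the Eed-KO and WT arrays. The 29 values that moved further follow. The Eed-KO input difference of 0.18 became 0.08 with normexp and 0.33 with arrays set to a common spread. The IP difference of 0.19 became 0.14, 0.31 and, centred on chromosomes other than 12, 14, 17, X and Y, 0.22. The ratio difference of 0.01 became 0.06 with normexp. Raised bins, 24 of 71, were 67 at a cut-off of 0.1, 4 at 0.3, 7 of 18 blocks of 5 Mb, and 0 with normexp. Windows bound in Eed-KO, 42, were 84 with a common spread, 117 at 1.5-fold and 8 at 3-fold. In Dnmt1-KO, 206 became 103 with a common spread and 101 at 3-fold. In WT, 26 became 14 with normexp, 88 with a common spread, 127 at 1.5-fold and 1 at 3-fold. Windows at least 0.5 higher in Eed-KO, 2, were 4 with normexp, 7 with runs of 4 probes and 0 at a difference of 1, and those lower, 1, were 0 with normexp, 8 with a common spread and 0 at a difference of 1. Windows at least 1 higher in Dnmt1-KO, 108, were 3 with a common spread, 60 less the GC trend and 64 with windows chosen on the Eed-KO and WT arrays, and those lower, 0, were 1 with a common spread. The causes were not tested. The pairings not kept, added after the data were seen, gave 42 and 42 windows bound in Eed-KO, 208 and 205 in Dnmt1-KO, and 26 and 26 in WT, of 413 with 1 gene name per probe and 390 within 10 kb. The first design alone gave no value, since it holds none of the segment's probes. The second alone must equal the values reported, and the authors' value table nearly must, yet both count among the 97. No paired analysis was possible because each genotype has 1 array per design and no result comes from a test.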
